A study of Homo sapiens with 9 samples.

Results

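Cells given instant coffee and cells given caffeic acid were set together against untreated cells, to look for gene expression changes that both exposures have in common. The comparison took all 9 of the 9 arrays of the series, 6 from treated and 3 from untreated cells. All came from HT29, a single established line of human colon cancer cells, and no array held normal colon. Control cells had no treatment. Instant caffeinated coffee (ICC) was given at 7 µg/mL and caffeic acid (CA) at 1.68 µg/mL, each for 24 h, and each of the 3 groups had 3 arrays (Affymetrix HG-U133 Plus 2.0, a chip that reads most human transcripts with 1 or more probe sets). Values below are log2 of the deposited intensity. A difference is the mean of the treated arrays minus the mean of the controls, fitted with limma with the replicate number of the array titles as a block, and ± marks its standard error over 6 treated and 3 control arrays. No label tells whether the replicates were independent cultures. The p-values thus cover only the variation among these 9 arrays, which may be technical, and in cultured cells as in any bulk sample fewer cells of a kind and less RNA per cell cannot be told apart.

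Caffeic acid is a phenolic acid that coffee drinkers take in both free and as part of chlorogenic acids, and instant coffee brings it together with caffeine, diterpenes and roasting products. Phenolic acids with a catechol ring can oxidise and modify KEAP1, which frees the transcription factor NRF2 to act on antioxidant response elements of detoxifying genes, while products of roasting can activate the aryl hydrocarbon receptor, which binds xenobiotic response elements. Caffeine blocks adenosine receptors and, at high doses, the phosphodiesterases that break down cyclic AMP, whose target genes carry cyclic AMP response elements. These response elements, and the gene groups under them, were therefore looked at in the shared change.

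HINT3, an enzyme of the histidine triad family, showed the largest shared difference and was 2.51-fold higher in treated cells. HINT3 read 7.99, 7.82 and 6.65 log2 on control arrays 1, 2 and 3. It read 8.81, 8.80 and 8.66 on the ICC arrays and 8.95, 8.98 and 8.68 on the CA arrays, so that every treated array lay above every control and the control with replicate number 3 stood apart from the other 2. The difference was +1.33 ± 0.17, with +1.27 for ICC and +1.38 for CA, and ICC minus CA was -0.11 with a 95% interval from -0.54 to +0.31. HINT3 missed the threshold over all genes (limma, adjusted p 0.123). Without Control replicate 3 its difference was smaller, +0.98, and its adjusted p was 0.0130. This was the only array whose removal alone brought any gene past the threshold. With the block, leaving out all arrays of number 3 gives the same difference by construction. This fit therefore cannot tell whether that control or the treated arrays of its number stood apart. The treated arrays of number 3, at 8.66 and 8.68, lay near the other treated arrays. The other 2 probe sets of HINT3 were +0.94 ± 0.12 and +0.88 ± 0.10, with 6 of 6 treated arrays above the control of the same number in each.

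**Figure D1:**
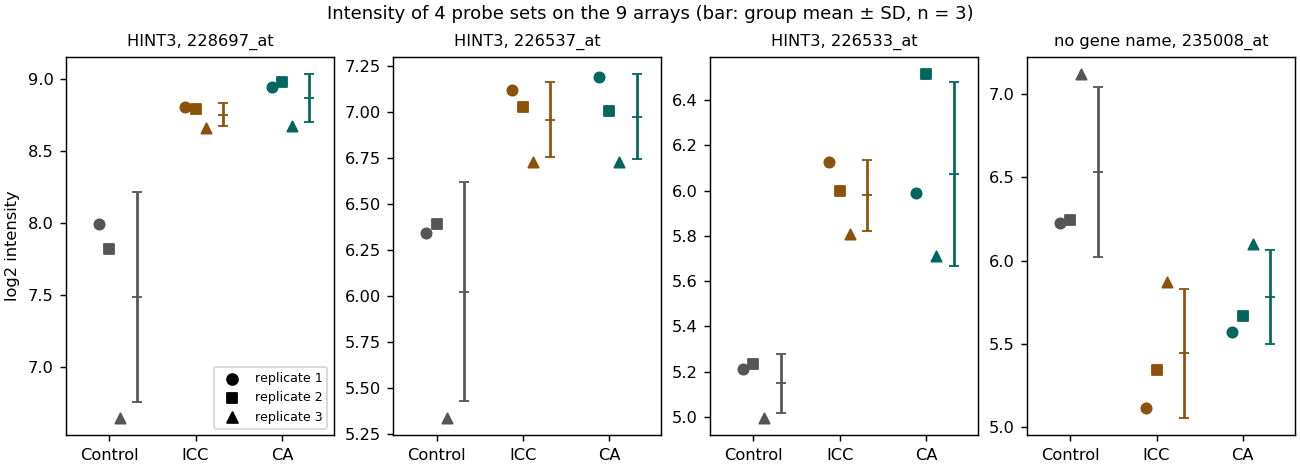
Log2 intensity (y axis) of the 3 probe sets of HINT3 and of probe set 235008_at on each of the 9 arrays (x axis, group), with the marker shape giving the replicate number and bars giving the group mean ± SD (n = 3). HINT3 was above every control on every treated array in all 3 probe sets, the lowest control being number 3, while 235008_at was below every control on every treated array.

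Over all 19775 genes, limma called 0 at an adjusted p under 0.05 (0.0%), with the replicate block and without it. An unadjusted p under 0.05 was reached by 2358 genes (11.9%), of which 1425 were higher in treated cells (7.21%) and 933 lower (4.72%). Without the block there were 1473 (7.45%). All 6 treated arrays lay above the control of their own number in 1452 genes (7.34%) and below it in 1046 (5.29%). The groups did not overlap at all, with every treated array above every control, in 505 genes (2.55%), and below every control in 227 (1.15%). Differences of at least 0.5 log2 were rare, with 2 genes higher (0.0101%) and 4 lower (0.0202%). The median of all genes was +0.015, at +0.028 for ICC and +0.0027 for CA. Single genes were also tested by an exact permutation test over the 27 ways to pick 1 control within each replicate number, two-sided, which cannot give a p below 0.0370, and 1447 genes reached that value (7.32%).

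Because 0 genes passed, the genes described next are the 12 highest and 12 lowest by moderated t among those with 6 of 6 treated arrays on one side of the same-numbered control. The choice itself fixes that direction in every array. Their adjusted p lay between 0.123 and 0.236. The exact permutation p was 0.0370 in 22 of them and 0.0741 in HSD3B1 and GLUD1.

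Promoter sequence is shown first for 3 of these genes, to set the response elements beside the values. Of those with a promoter here, only the LPP window held all 3 elements searched, and RFXAP held the antioxidant core at 2 places. GLUD1 stands for the lower group, its 2 probe sets having nearly the same value. Each line gives, 5′ to 3′ on the gene's strand, the 250 bases before the RefSeq start site in GRCh38.p14, at chr3:188153648-188153897 (plus strand) for LPP, chr13:36818972-36819221 (plus strand) for RFXAP and chr10:87094844-87095093 (minus strand) for GLUD1. Capitals mark letters that match an element on either strand.
LPP: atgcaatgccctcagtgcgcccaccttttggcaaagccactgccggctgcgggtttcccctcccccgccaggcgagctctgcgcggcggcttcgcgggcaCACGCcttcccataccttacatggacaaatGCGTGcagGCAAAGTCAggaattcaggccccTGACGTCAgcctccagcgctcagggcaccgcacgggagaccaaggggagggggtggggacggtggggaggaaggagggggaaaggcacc
RFXAP: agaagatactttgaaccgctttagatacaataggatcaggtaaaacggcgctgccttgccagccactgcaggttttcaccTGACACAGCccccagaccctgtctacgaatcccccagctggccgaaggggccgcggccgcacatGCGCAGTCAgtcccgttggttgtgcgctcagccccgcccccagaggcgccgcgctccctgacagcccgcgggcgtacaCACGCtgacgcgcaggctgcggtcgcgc
GLUD1: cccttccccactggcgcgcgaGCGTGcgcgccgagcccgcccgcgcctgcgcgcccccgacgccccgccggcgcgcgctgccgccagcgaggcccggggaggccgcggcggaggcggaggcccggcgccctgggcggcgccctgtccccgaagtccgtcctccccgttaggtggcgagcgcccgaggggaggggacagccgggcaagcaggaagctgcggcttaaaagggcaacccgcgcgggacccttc

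The elements searched were the antioxidant response element core TGACNNNGC, the xenobiotic response element core GCGTG and the cyclic AMP response element TGACGTCA, on both strands, in windows from 250 bases before to 50 after the start site. In LPP the antioxidant core began 112 bases, the cyclic AMP element 89 bases and the xenobiotic cores 150 and 120 bases before the start. In RFXAP antioxidant cores began 170 and 106 bases before the start, and a xenobiotic core 28 bases before it. Promoters were found for 10 of the 12 higher genes and for 10 of the 12 lower ones. The antioxidant core was in 5 of the 10 higher promoters (ORAI2, EPOR, RFXAP, LPP and TBX20) and in 0 of the 10 lower ones, against 13.6% of 27305 promoters. The xenobiotic core was in 7 of 10 higher and 4 of 10 lower promoters, against 36.3% of all. The cyclic AMP element was in 1 higher promoter and 0 lower ones, against 1.98% of all. ORAI2, LPP, PTGER4 and PARD6B turned sign with another choice of probe sets, as given below. Without them 7 higher promoters were left, of which 3 held the antioxidant core, 4 the xenobiotic core and 0 the cyclic AMP element. EPOR, one of the 3, had further probe sets of both signs. GC content differed along with these counts, with a median of 65.3% in the higher promoters, 54.8% in the lower and 58.3% in all, and its part in them was not tested. A match of letters is not evidence of binding.

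Among the higher genes EPOR, the erythropoietin receptor, read 7.46, 7.65 and 7.41 log2 on the controls, 8.08, 7.91 and 7.90 with ICC and 7.76, 8.02 and 7.94 with CA. All treated arrays lay above all controls, and the difference was +0.43 ± 0.079 (1.35-fold, ICC +0.46, CA +0.40). RFXAP, a subunit of the RFX complex that switches on MHC class II genes, read 7.56, 7.59 and 7.05 on the controls, against 7.80, 7.91 and 7.70 with ICC and 7.88, 8.14 and 7.54 with CA. Its groups overlapped, since the CA array of number 3 lay below 2 controls, and the difference was +0.43 ± 0.079. PARD6B, a scaffold of the cell polarity complex, read 8.71, 9.39 and 8.89 on the controls, 9.52, 9.70 and 9.39 with ICC and 9.28, 9.90 and 9.10 with CA. Here too the arrays overlapped and followed the replicate number, and the difference was +0.48 ± 0.093.

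ABCC12, a transporter of the ABC family, was higher by +0.38 ± 0.059 (ICC +0.48, CA +0.28) with all treated arrays above all controls. It was a dim gene, at 3.64, 3.52 and 3.59 on the controls, in the lowest quartile of genes by level. ORAI2, a subunit of store-operated calcium channels, read 8.53, 8.65 and 8.72 on the controls, and the treated arrays ran from 8.82 to 9.14 with no overlap (+0.32 ± 0.058). DGKK, a diacylglycerol kinase, was +0.37 ± 0.069 and also had no overlap. The prostaglandin E2 receptor PTGER4, which raises cyclic AMP, was +0.33 ± 0.062, and the histone chaperone and phosphatase inhibitor SET, among the brightest genes at 12.35, 12.25 and 12.09 on the controls, was +0.34 ± 0.063. LPP, a LIM protein of cell adhesions, was +0.31 ± 0.057, the heart transcription factor TBX20 +0.33 ± 0.063 and NPAP1, a protein of the nuclear pore, +0.32 ± 0.062. Of the 12 higher genes 4 lay in the lowest quartile by level, ABCC12, DGKK, TBX20 and NPAP1.

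Among the lower genes 2 were bicarbonate transporters. SLC4A4, the sodium bicarbonate cotransporter of the basolateral membrane, read 6.62, 6.66 and 6.75 log2 on the controls, 6.33, 6.31 and 6.33 with ICC and 6.16, 5.95 and 6.05 with CA. Every treated array lay below every control and the 3 groups did not overlap, with CA lowest. The difference was -0.49 ± 0.062 (1.41-fold lower, adjusted p 0.123), at -0.36 for ICC and -0.63 for CA. SLC26A6, an exchanger of chloride for bicarbonate and oxalate, read 6.39, 6.81 and 6.89 on the controls, 5.80, 6.42 and 6.43 with ICC and 6.17, 6.43 and 6.52 with CA, a difference of -0.40 ± 0.068. Array 1 was the lowest of each group, so the groups overlapped while each treated array stayed below its own control.

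HSD3B1, which makes progesterone and other steroids, read 6.94, 6.60 and 6.01 on the controls, 6.67, 6.33 and 5.59 with ICC and 6.48, 5.90 and 5.22 with CA. In every group the value was highest for number 1 and lowest for number 3, so the ranges overlapped widely, and the difference of -0.48 ± 0.067 (adjusted p 0.176) rested on the block. Without the block its adjusted p was 0.752. Its near-identical copy HSD3B2 can share probes, which makes the gene's identity uncertain. NEB, the nebulin of muscle thin filaments, was also lowest for number 3 in every group but highest for number 2 (6.53, 6.82 and 5.83 on the controls). It was lower by -0.41 ± 0.064, at -0.28 for ICC and -0.53 for CA, and its ranges overlapped too. In the fit over all probe sets, the standard error of NEB without the block was 0.27.

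GLUD1, the mitochondrial glutamate dehydrogenase, read 9.69, 9.79 and 9.72 on the controls, 9.23, 9.35 and 9.32 with ICC and 9.38, 9.58 and 9.63 with CA. No treated array reached a control. The difference was -0.32 ± 0.059, at -0.43 for ICC and -0.20 for CA, and ICC minus CA was -0.23 with a 95% interval from -0.38 to -0.077. Its near-identical copy GLUD2 can share the probes. CYP2A13, a cytochrome P450 best known from the airway, read 5.80, 5.77 and 5.88 on the controls and between 5.24 and 5.54 on the treated arrays, again with no overlap (-0.37 ± 0.063). Its relatives of the CYP2A cluster are also near-identical, so this value is uncertain as to the gene. The membrane protein EMP3 was -0.41 ± 0.067, the basement membrane antigen TINAG -0.37 ± 0.066, the synaptotagmin SYT13 -0.35 ± 0.060 and WDR76, a substrate adaptor of a ubiquitin ligase, -0.35 ± 0.062. PRR19, a proline-rich protein, was -0.34 ± 0.062 and the phosphatase CTDSPL2 -0.30 ± 0.054. In EMP3, SYT13 and PRR19 treated and control arrays overlapped. Without the block, in the fit over all probe sets, their standard errors were 0.19, 0.19 and 0.17.

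**Figure D2:**
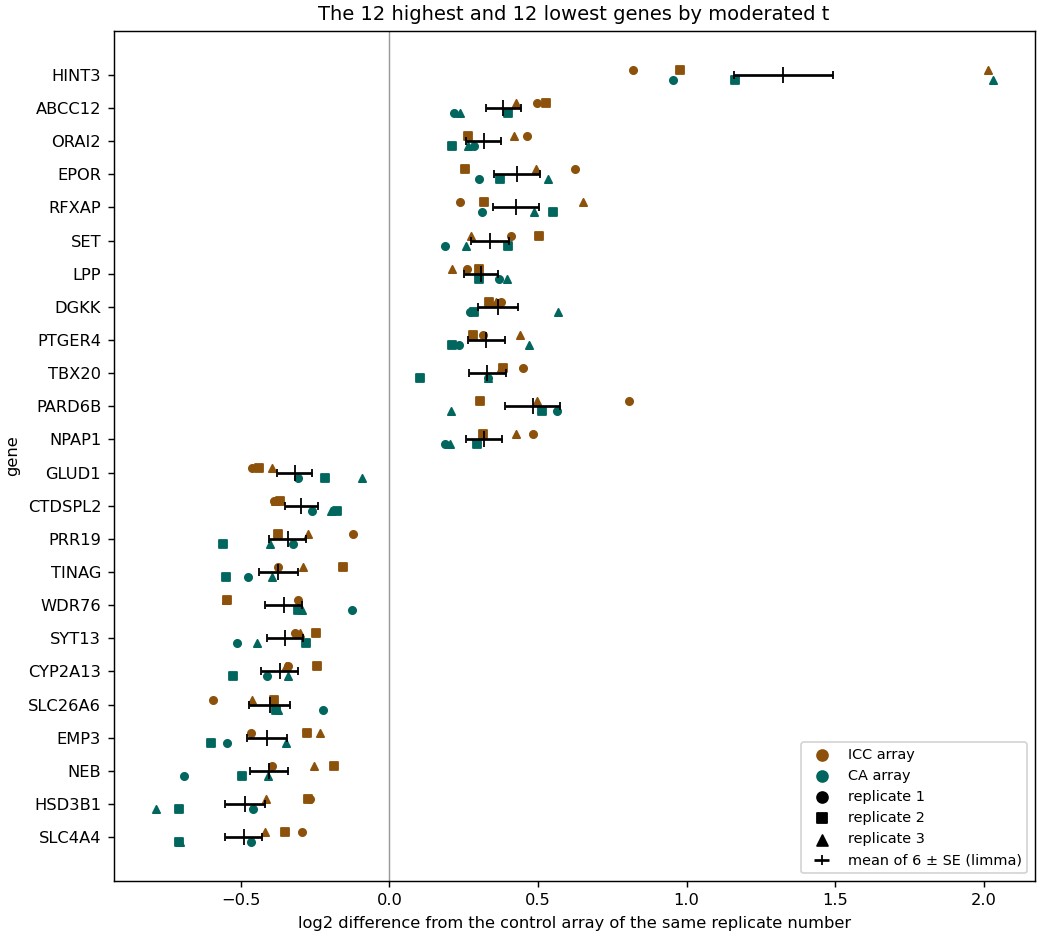
Log2 difference of each treated array from the control array of the same replicate number (x axis) for the 12 highest and 12 lowest genes (y axis); colour gives the treatment, marker shape the number, and the black bar the fitted difference ± SE. The selection puts all points of a gene on one side of 0, and HINT3 reaches +1.33 on average with the largest values in number 3, against +0.31 to +0.48 in the other higher genes.

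By the selection both exposures lay on the same side of control in these 24 genes, at doses that differ and against the same 3 controls. ICC was above CA in 8 of the 12 higher genes and in 8 of the 12 lower ones. The share over all genes was not counted. The median of all genes was also higher for ICC (+0.028) than for CA (+0.0027). ICC minus CA was +0.27 (95% interval 0.11 to 0.43) in SLC4A4 and +0.33 (0.16 to 0.50) in HSD3B1, and +0.20 (0.049 to 0.35) in ABCC12. It was -0.23 in both GLUD1 and WDR76. At an unadjusted p under 0.05 by limma, 10 of the 24 differed between ICC and CA, and the share over all genes was not counted. None of the 24 passed limma's test of ICC minus CA over all genes, which called 1 gene (0.00506%). That gene was S100A2, a calcium-binding protein of epithelia. S100A2 read 9.60, 9.44 and 9.67 on the controls, 9.75, 9.45 and 9.62 with ICC and 9.06, 8.77 and 9.03 with CA. The pooled difference of S100A2, -0.29 ± 0.059, is therefore that of the CA arrays (-0.62), while ICC stood at +0.04.

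The chip reads most genes with several probe sets, and these were compared with the brightest one. Of the 24 genes 7 had 1 probe set. Of the other 17, all further probe sets had the same sign in 9, and at least 1 had the opposite sign in 8. The same sign often went with little change. The further set was +0.063 in ABCC12, +0.086 in RFXAP, -0.0063 in NEB, -0.033 in SYT13 and -0.052 in WDR76. TINAG had further sets at -0.15 and -0.0036. Only 5 of the 17 had a further set with 6 of 6 treated arrays on the same side. HINT3 and GLUD1 agreed in size, with the second probe set of GLUD1 at -0.35 ± 0.068. SLC4A4 had further sets between -0.20 and +0.05, 2 of them with 6 of 6 treated arrays below control. EPOR was +0.43 in its brightest set and between -0.13 and +0.10 in the other 4. PARD6B stood at +0.48 in its brightest set and at -0.28 and -0.53 in its dimmer ones, and LPP at +0.31 and between -0.23 and +0.07. SET stood at +0.34 in its brightest set and at -0.14 in its other, with 5 of 6 treated arrays below control there. These genes have no single direction on this chip: ORAI2 and PTGER4 had -0.14 and -0.16 once sets with the suffix _x_at or _s_at were dropped, and LPP and PARD6B had -0.017 and -0.11 with all sets of the gene averaged.

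Probe sets tested one by one, 54613 in all, gave 1 call at an adjusted p under 0.05 (0.00183%). It was 235008_at, which has no gene name in the platform annotation used here. It read 6.23, 6.25 and 7.12 log2 on the controls, 5.12, 5.34 and 5.87 with ICC and 5.57, 5.67 and 6.10 with CA. Each treated array lay below every control, and array 3 was the highest of each group. It fell by 0.92 ± 0.079 on the log2 scale (1.89-fold lower, limma, adjusted p 0.0148), with -1.09 for ICC and -0.75 for CA. The call was lost without the block (adjusted p 0.498), and without any 1 of the 3 Control or 3 ICC arrays (-1.01 to -0.81, adjusted p 0.0505 to 0.180), while it was kept without any 1 of the 3 CA arrays. It was also lost with CA arrays alone (-0.75, adjusted p 0.454).

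The next probe sets were those of HINT3 (adjusted p 0.0921 for each of the 3 over all probe sets) and 217790_s_at of SSR3, which encodes part of the TRAP complex at the entry of the endoplasmic reticulum. SSR3 and HNRNPH1 were picked out here after their values were seen. The SSR3 set was -0.55 ± 0.065 (adjusted p 0.0921), while the other sets of SSR3 were -0.29, -0.16 and -0.08. The splicing factor HNRNPH1 had sets at +0.49, +0.22, -0.44 and -0.58, each with 6 of 6 treated arrays on one side. Among all probe sets, 3168 were higher at an unadjusted p under 0.05 (5.8%) and 3588 lower (6.57%). The balance changed with the order of a gene's probe sets by brightness. Of the brightest sets 6.67% were higher and 4.38% lower, and of those at place 4 or beyond 4.01% were higher and 8.97% lower.

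**Figure D3:**
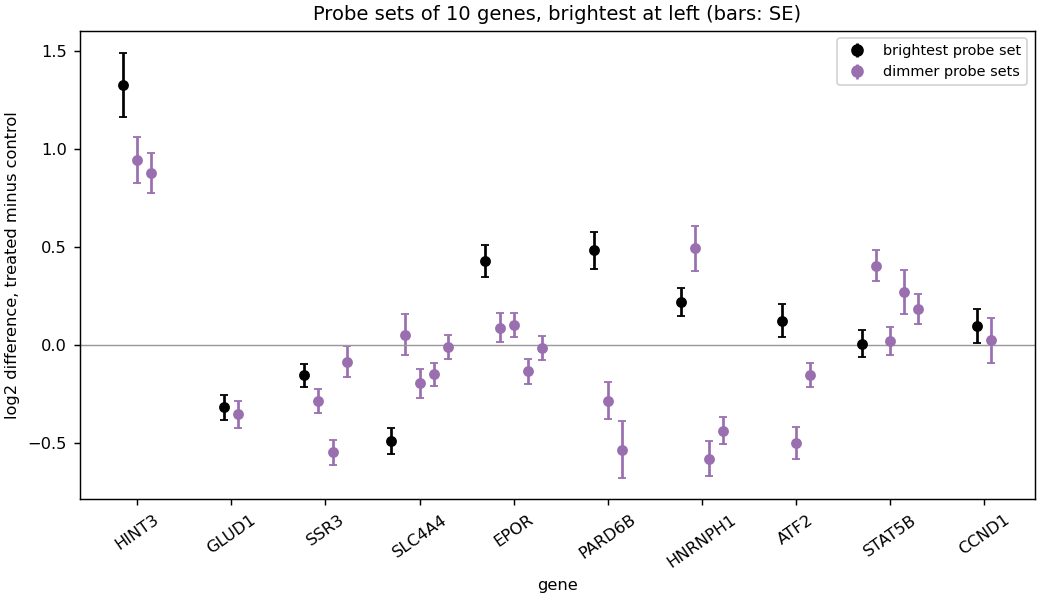
Log2 difference of treated from control arrays (y axis, bars SE) for every probe set of 10 genes (x axis), the brightest in black at left. The 3 sets of HINT3 lay between +0.88 and +1.33 and the 2 of GLUD1 at -0.32 and -0.35, while sets of PARD6B, HNRNPH1 and ATF2 lay on both sides of 0.

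STAT5B and ATF2, transcription factors that can act on the cyclin D1 gene CCND1, are the genes for which these arrays are known, so their values here are not independent evidence. STAT5B read 7.23 on each of the 3 controls and between 7.12 and 7.39 on treated arrays, a difference of +0.01 ± 0.065 that overlapped fully. Equal values are common in the deposited data, where 54.0% of probe sets had the same value in at least 2 arrays. What this did to the spread was not tested. ATF2 read 8.85, 8.98 and 8.96 on the controls and 8.97 to 9.34 on treated arrays (+0.12 ± 0.083, adjusted p 0.583). CCND1 was +0.10 ± 0.085 (adjusted p 0.688). Other probe sets gave different values. A dimmer set of STAT5B, 1555088_x_at, was +0.40 ± 0.080 with 6 of 6 treated arrays above control. Both dimmer sets of ATF2 had 6 of 6 below, 205446_s_at at -0.50 ± 0.082 and 1555146_at at -0.15 ± 0.061. None of these sets passed over all probe sets (limma, adjusted p 0.153, 0.138 and 0.351). Among the other D cyclins CCND2 was +0.25 ± 0.084 and CCND3 +0.07 ± 0.063.

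Gene groups were described with 39 lists, 35 of pathways or families and 4 of cell type markers, which held 792 measured entries. No entry passed over all genes, so a list is given by its median and by how many members lay at an unadjusted p under 0.05 or had 6 of 6 treated arrays on one side. The shares over all genes are those above, 7.21% higher and 4.72% lower at that p, and 7.34% and 5.29% for 6 of 6.

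**Figure D4:**
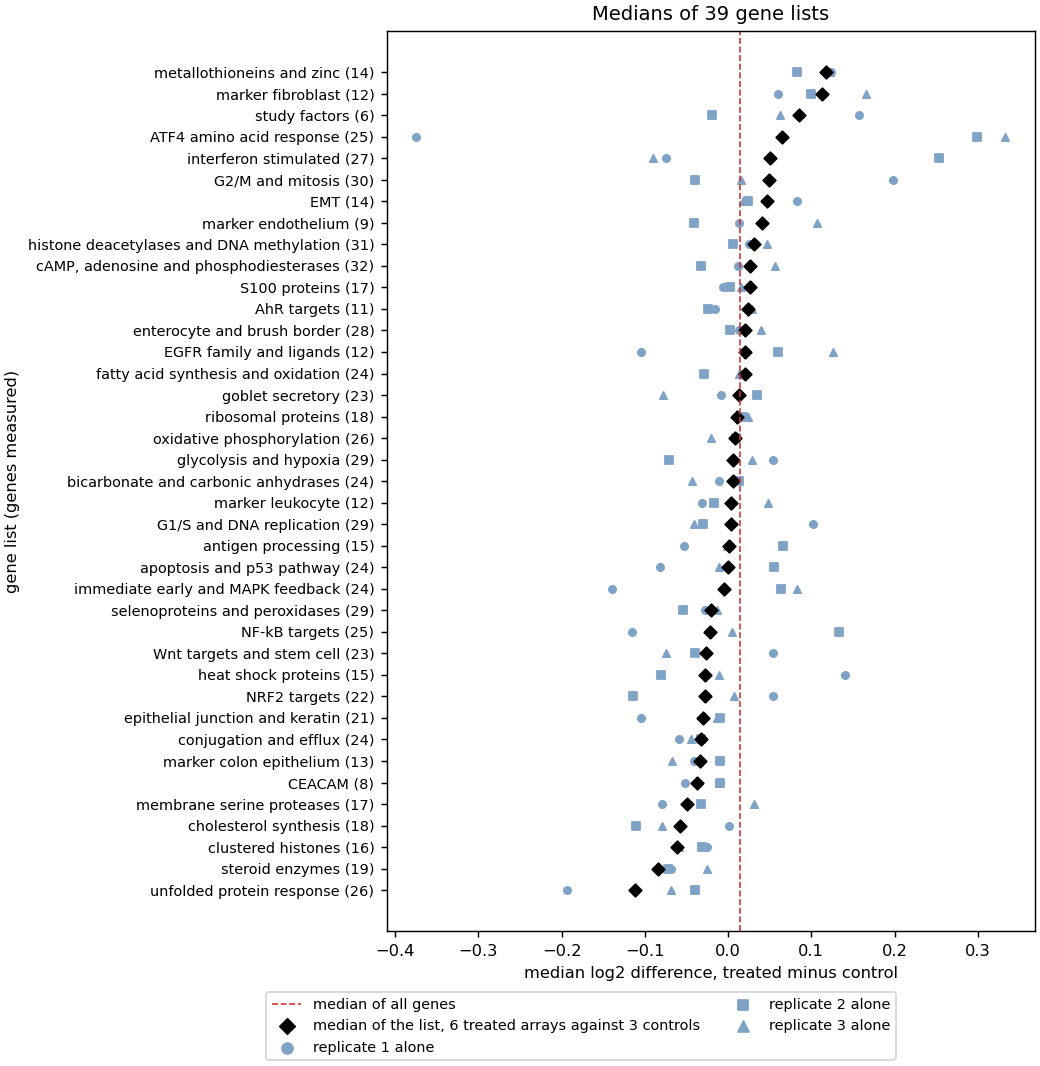
Median log2 difference of treated from control arrays (x axis) for each of 39 gene lists (y axis, genes measured in brackets), as diamonds over all arrays and as blue marks for each replicate number alone; the dashed line is the median of all genes at +0.015. The unfolded protein response lay lowest at -0.11 and the metallothioneins and zinc genes highest at +0.12, with all 3 numbers on the same side in both, while the ATF4 list ran from -0.37 to +0.33 between numbers.

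The unfolded protein response had the lowest median. This response raises chaperones, folding enzymes and degradation factors when unfolded protein gathers in the endoplasmic reticulum. Its 26 measured genes had a median of -0.11, at -0.11 for ICC and -0.12 for CA, and 21 of 26 lay below 0. At an unadjusted p under 0.05 there were 9 lower and 0 higher, and 11 had 6 of 6 treated arrays below control. The list also holds CRYBG1, which is not known to belong to this response and stood at -0.079, and without it 20 of 25 lay below 0. By replicate number the median was -0.19, -0.040 and -0.069, and without Control replicate 1 it was -0.055. DNAJB9, a cochaperone of the BiP chaperone, read 9.00, 9.22 and 8.69 on the controls, 8.56, 8.77 and 8.64 with ICC and 8.57, 8.74 and 8.48 with CA, a difference of -0.34 ± 0.074 (adjusted p 0.272). Its control of number 3 lay within the treated range. SDF2L1 was -0.23 ± 0.066, the chaperone HSP90B1 -0.17 ± 0.063 and the translocon subunit SSR3 -0.16 ± 0.055. The master chaperone HSPA5 and the transcription factor XBP1 were among the 5 genes above 0.

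Metallothioneins and zinc genes had the highest median. Metallothioneins bind zinc and copper and are induced when free zinc rises, and the list also holds zinc transporters. Its 14 genes had a median of +0.12, at +0.13 for ICC and +0.08 for CA, with 6 higher and 0 lower at an unadjusted p under 0.05 and 6 with 6 of 6 treated arrays above control. The numbers gave +0.12, +0.08 and +0.12, but with sets of the suffix _x_at or _s_at dropped the median was +0.019. MT1X read 10.98, 10.80 and 10.70 on the controls, 11.20, 10.92 and 10.88 with ICC and 11.24, 10.94 and 10.90 with CA, a difference of +0.19 ± 0.055. The arrays overlapped, each treated value lying just above its own control. MT2A was +0.17 ± 0.057, the brain type MT3 +0.27 ± 0.067 and the zinc importer SLC39A5 +0.27 ± 0.088 with 5 of 6 above. Metallothioneins are near-identical copies and can share probes, so their values are not independent. The zinc exporter SLC30A1 and the sensor MTF1, which drives metallothionein genes, lay below 0.

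**Figure D5:**
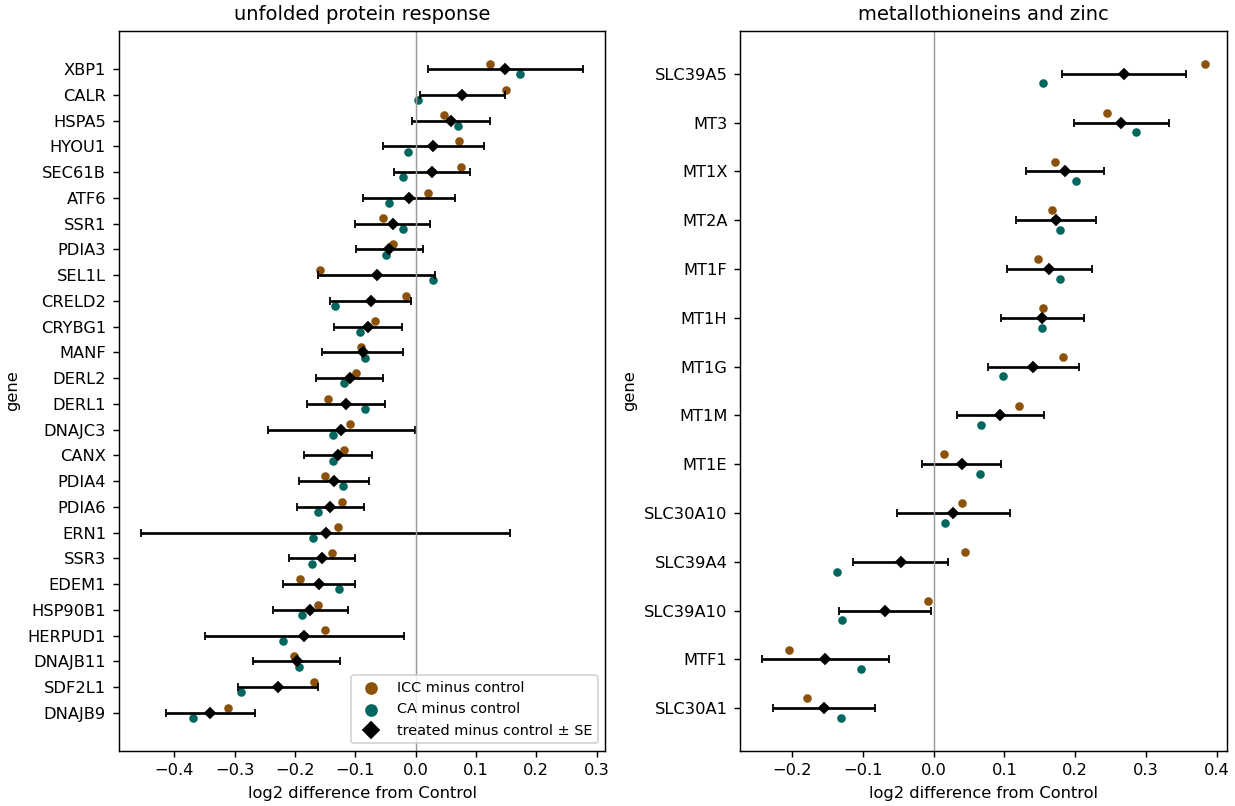
Log2 difference from control (x axis) of the measured genes (y axis) of the unfolded protein response list, left, and of the metallothionein and zinc list, right; diamonds give both treatments together ± SE, and dots give ICC and CA alone, which share the 3 controls. Of the first list 21 of 26 genes lay below 0, and of the second 10 of 14 lay above it.

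The antioxidant and aryl hydrocarbon receptor targets were counted in the same way. Of 22 NRF2 targets 0 were higher and 4 lower at an unadjusted p under 0.05, with a median of -0.028. The aldo-keto reductases AKR1C2 at -0.26 ± 0.079, AKR1B10 at -0.27 ± 0.11 and AKR1C1 at -0.20 ± 0.086 were 3 of the 4, and AKR1C1 and AKR1C2 are near-identical and can share probes. Without Control replicate 2 AKR1B10 was -0.11. The fourth, heme oxygenase HMOX1, read 5.88, 7.69 and 5.92 on the controls, 5.54, 6.75 and 6.02 with ICC and 5.59, 5.92 and 6.03 with CA. Its difference of -0.52 ± 0.23 came mostly from the high control of number 2, and in number 3 both treated arrays lay above control. NFE2L2, the gene of NRF2 itself, was +0.18 ± 0.080 with 6 of 6 arrays above. Of 11 targets of the aryl hydrocarbon receptor 1 was higher and 1 lower, with a median of +0.024, which joined -0.07 for ICC and +0.11 for CA.

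Conjugation and efflux genes, which attach sulfate, glucuronic acid or glutathione to phenolic compounds or export them, had 2 of 24 higher and 4 lower at an unadjusted p under 0.05. The sulfotransferase SULT1B1 read 4.81, 5.13 and 5.01 on the controls, 5.53, 5.34 and 5.38 with ICC and 5.35, 5.31 and 5.45 with CA. No treated array overlapped a control, and the difference was +0.41 ± 0.082 (1.33-fold, adjusted p 0.236). The glutathione transferase GSTM3 was +0.22 ± 0.077. UGT1A6, a glucuronosyltransferase whose probes can also read other UGT1A enzymes, was -0.24 ± 0.063 and MGST2 -0.18 ± 0.066, each below control in 6 of 6 arrays.

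Genes of cyclic AMP, adenosine receptors and phosphodiesterases, the targets of caffeine, were split, with 6 of 32 higher and 6 lower at an unadjusted p under 0.05 and a median of +0.026. PCK1, the gluconeogenic enzyme induced by cyclic AMP, read 4.57, 4.52 and 4.34 on the controls, 4.20, 4.33 and 4.0 with ICC and 4.22, 4.05 and 4.13 with CA. Every treated array lay below every control, by -0.32 ± 0.072 (adjusted p 0.275). The adenylyl cyclase ADCY5 was +0.25 ± 0.058, the catalytic subunit of protein kinase A PRKACA +0.30 ± 0.075, and the coactivator PPARGC1A +0.30 ± 0.081, at +0.43 for ICC and +0.18 for CA. PCK1, ADCY5 and PPARGC1A were dim genes, below the median level.

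Chromatin and selenoprotein genes held several of the lower values. Of 31 genes of histone deacetylation and DNA methylation 2 were higher and 4 lower at an unadjusted p under 0.05, although 23 of 31 lay above 0 and the median was +0.031. MTA2, a subunit of the NuRD deacetylase complex, read 6.54, 6.42 and 6.36 on the controls, 6.17, 5.93 and 5.87 with ICC and 5.95, 6.15 and 6.13 with CA. No treated array reached a control (-0.41 ± 0.082, 1.33-fold lower). The histone binder RBBP4, of the same complex, was -0.24 ± 0.061, the deacetylase HDAC8 -0.29 ± 0.074 and HDAC10 +0.27 ± 0.073. Of 29 selenoproteins and peroxidases 0 were higher and 5 lower, with a median of -0.021. SELENOT, of the endoplasmic reticulum, read 11.29, 11.09 and 11.20 on the controls, against 10.70 to 10.79 with ICC and 10.93 to 11.04 with CA. The groups did not overlap (-0.32 ± 0.064), and SELENOS, also of the endoplasmic reticulum, was -0.22 ± 0.065. GPX3, a secreted glutathione peroxidase, was -0.22 ± 0.066 with 5 of 6 below.

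Genes of the intestinal stem cell and of Wnt signalling, which keeps colon crypt cells dividing, were lower in 6 of 23 and higher in 0 at an unadjusted p under 0.05, with a median of -0.026. PROX1, a homeobox factor induced by Wnt in colon tumours, read 9.14, 8.89 and 8.60 on the controls, 8.93, 8.66 and 8.21 with ICC and 8.90, 8.60 and 8.23 with CA. Each treated array lay below its own control while the groups overlapped, and the difference was -0.29 ± 0.058 (adjusted p 0.236). The protease MMP7 was -0.26 ± 0.071 and the transcription factor MYB -0.21 ± 0.070. Goblet and secretory genes had 5 of 23 lower and 0 higher, with a median of +0.013 that joined +0.049 for ICC and -0.10 for CA. AGR3, a disulfide isomerase of secretory cells, stood at -0.44 ± 0.10, but at -0.12 for ICC and -0.76 for CA, and AGR2 at -0.06 and -0.40. The membrane mucin MUC13 was lower with both, at -0.15 for ICC and -0.21 for CA. Of the CEACAM adhesion proteins CEACAM1 was -0.14 for ICC and -0.41 for CA, and CEACAM6 -0.09 and -0.44, so the pooled values of AGR3, AGR2, CEACAM1 and CEACAM6 came mainly from CA arrays.

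Steroid enzymes had a median of -0.085, at -0.018 for ICC and -0.10 for CA, with 3 of 19 lower and 0 higher at an unadjusted p under 0.05. Beside HSD3B1 these were HSD11B1 at -0.22 ± 0.075 and HSD17B2, which inactivates oestradiol, at -0.28 ± 0.094. HSD17B2 read 9.53, 9.65 and 9.67 on the controls, 8.94, 9.65 and 9.63 with ICC and 8.86, 9.49 and 9.45 with CA. Its difference lay mostly in the treated arrays of number 1. Bicarbonate transporters and carbonic anhydrases had 1 of 24 higher and 4 lower, with a median of +0.006, at +0.041 for ICC and -0.060 for CA. SLC4A4 and SLC26A6 were 2 of the 4, the carbonic anhydrase CA2 was -0.19 ± 0.080 (ICC -0.06, CA -0.33), and the sodium hydrogen exchanger SLC9A2 was +0.19 ± 0.064.

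Of 29 genes of G1/S and DNA replication 2 were higher and 1 lower at an unadjusted p under 0.05 (median +0.003), with CCNE2 at +0.24 ± 0.074 and the polymerase POLA1 at -0.19 ± 0.056. CCNE2 had -0.0078 with the mean of its probe sets. Of 30 mitotic genes 3 were higher (median +0.049), among them NEK2 at +0.23 ± 0.085 and TOP2A at +0.18 ± 0.069, and the median of number 1 alone was +0.20 against -0.040 and +0.016 in the other two. Without Control replicate 1 NEK2 was +0.097 and TOP2A +0.10. The cell cycle inhibitor CDKN1B read 9.80, 9.86 and 9.74 on the controls, 10.14, 9.99 and 10.08 with ICC and 9.94 to 10.04 with CA, with no overlap (+0.23 ± 0.061, adjusted p 0.286). Genes of apoptosis and the p53 pathway were split, with 12 of 24 above 0, 12 below and a median of -0.00067. At an unadjusted p under 0.05 there were 2 higher and 4 lower. The apoptosis inhibitor XIAP was +0.21 ± 0.066, the death receptor FAS -0.16 ± 0.056 and the BH3-only protein PMAIP1 -0.29 ± 0.11.

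Several inflammatory and hypoxia genes varied with the replicate number. CXCL10, a chemokine, read 8.14, 6.64 and 6.74 on the controls, 7.05, 6.52 and 6.63 with ICC and 6.84, 6.63 and 5.96 with CA. It had the lowest difference of all genes, -0.57 ± 0.18, and most of it lay in number 1, where the control was high. The vasodilator peptide ADM, induced by hypoxia, was -0.52 ± 0.16, with a control of 9.89 in number 2 against 8.91 and 8.73. IFI6, induced by interferon, was -0.33 ± 0.083, and hexokinase HK2 -0.22 ± 0.060 with 6 of 6 below. The whole lists were mixed. Of 27 interferon-stimulated genes 17 lay above 0 (median +0.050), with 0 higher and 3 lower at an unadjusted p under 0.05. Of 29 genes of glycolysis and hypoxia 15 lay above 0 (median +0.0063), with 1 higher and 4 lower. Of 25 NF-kB target genes 12 lay above 0 (median -0.022), with 1 higher and 3 lower. FST, which binds activin, stands outside these lists. It read 4.73, 4.85 and 5.07 on the controls and between 5.21 and 5.48 on treated arrays with no overlap (+0.44 ± 0.089, adjusted p 0.236). Of 25 genes of the ATF4 response to amino acid shortage 20 lay above 0, with a median of +0.064, but 0 were at an unadjusted p under 0.05 and the 3 numbers gave -0.37, +0.30 and +0.33.

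The arrays were alike in level, with median intensities of 43.8 to 46.6. Sums of epithelial markers overlapped between groups, but 10 of their 13 members lay below 0, with a median of -0.034. The 3 replicate numbers gave -0.041, -0.010 and -0.067. At an unadjusted p under 0.05, 1 of these markers was lower and 0 higher. The markers of colon epithelium summed to 56443 to 60273 on controls and 55140 to 59791 on treated arrays, and the sums of leukocyte and endothelial markers overlapped between groups as well, although 4 of 12 leukocyte markers were higher and 1 lower at an unadjusted p under 0.05. Fibroblast markers summed to 646 to 706 on controls, 693 to 785 with ICC and 671 to 727 with CA, with 10 of 12 below the median level, and 4 of 12 were higher at an unadjusted p under 0.05, among them ACTA2 at +0.23 ± 0.063 and FAP at +0.23 ± 0.073, while 5 of 12 lay below 0. The part of these marker lists in the other differences was not tested. The 3′ minus 5′ log2 difference of the ACTB control probe sets, a sign of RNA quality, was 0.163 to 0.324 on controls and 0.236 to 0.396 on treated arrays, and that of GAPDH was -0.039 to 0.018 and -0.018 to 0.093. Against the control of the same number it was larger on 5 of 6 treated arrays for ACTB and on 6 of 6 for GAPDH. What this brought to the higher and lower probe sets was not tested.

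The balance of higher and lower genes moved with the level and the scaling. In the quartile of genes just below the median level 524 were higher and 164 lower at an unadjusted p under 0.05, while 303 and 399 were so in the next quartile up. Higher genes made up 60.4% of these over all levels, 70.2% with ICC arrays alone and 49.4% with CA arrays alone. The share was 68.9% without the block, 64.1% after a further quantile normalization, 53.4% with arrays centred on their medians and 46.0% without dim genes.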

How the data were processed

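Biotin-labelled total RNA of HT29 cells was read on 9 arrays, per the labels' protocols. The submitters' processing notes name RMA, which gives all arrays nearly 1 distribution, as the source of the deposited intensity values, with no version. These are linear, so log2 was taken. Of 54675 probe sets, 62 AFFX controls were left out, 41091 named 1 gene, 1801 several and 11721 none. Each of 19775 genes was read from its brightest single-gene probe set. limma 3.58.1 (R 4.3.3) fitted the 3 groups and the replicate number. The contrast was the mean of ICC and CA minus Control, with Benjamini-Hochberg adjustment over all genes and a threshold of 0.05. The number was used as a block because the comparison was set that way. Same-numbered arrays deviated together from their group means (r 0.327 to 0.518 in 9 pairs, -0.436 to 0.0839 in 18 others). Deviations within a group add up to 0, so a high r in the first pairs by itself lowers that of the others. Named genes were the 12 highest and 12 lowest by moderated t with 6 of 6 arrays on one side, uncharacterised loci passed over, up to 4 genes with the smallest p of each list, and always STAT5B, ATF2 and CCND1. Members and lists were chosen with earlier results of these data known, and names outside the rule after their values were seen. Promoters come from RefSeq (GRCh38.p14). The fit was also run on simulated data with independent normal noise at the fitted spreads. Such data follow the assumptions of the model, so they do not test those. Alternatives changed the block, treatments pooled, scaling, offset, dim genes, probe sets and arrays.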

Additional observations from a re-analysis of the deposited data

Results flagged for a closer look

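S100A2 differed between the treatments, the only gene that did so by limma's test of ICC minus CA over all genes with the replicate block. The difference was 0.654 log2, with ICC at +0.04 and CA at -0.62 against the same 3 controls. The adjusted p was 0.0388 over all genes and 0.133 over all probe sets, where 0 passed this test.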

How the results depend on the processing

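Of the 19775 genes 0 passed, and 1 passed with all sets of a gene averaged, with an intensity trend in the variance, and in leave-one-out fits, which ranged from 0 to 1. That gene was HINT3, at +1.05 (adjusted p 0.0178), +1.33 (0.0358) and, without Control replicate 3, +0.98 (0.0130). Of probe sets 1 passed, against 0 with no replicate block, with 1 treated group of 6 arrays, with CA arrays only and with log2 of the value plus 16, 4 with ICC arrays only, 6 with arrays centred on their medians, 6 with an intensity trend, and 0 to 3 with arrays left out. Probe set 235008_at was -0.92 with no replicate block (adjusted p 0.498), -0.92 with 1 treated group (0.0843), -0.75 with CA arrays only (0.454), -0.74 with 16 added (0.144) and -1.01 to -0.81 with arrays left out. The cause was not tested. Without the pairing by number 1473 genes, not 2358, were at an unadjusted p under 0.05.

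Signs turned in ORAI2 (-0.14), PTGER4 (-0.16) and DCN (-0.025) when sets with the suffix _x_at or _s_at were dropped, and in LPP (-0.017), PARD6B (-0.11), ATF2 (-0.18), CCNE2 (-0.0078) and HNRNPH1 (-0.076) with the mean of probe sets. STAT5A ranged from -0.090 to 0.099 and STAT5B from -0.027 to 0.054 with arrays left out, and STAT5B was -0.025 with ICC arrays only, -0.0039 with arrays centred and +0.18 with all sets of the gene averaged. S100A2 was +0.037 with ICC arrays only. Of the values of named genes under an alternative, 2418 kept their sign and side of the threshold 4 came to pass and 21 turned sign. The unfolded protein response median lay between -0.145 and -0.055 (-0.115 without CRYBG1, tried after seeing the data) and that of metallothioneins and zinc genes between +0.019 and +0.134. Several differences were smaller with 1 array left out. Without Control replicate 1, CXCL10 was -0.26, HSD17B2 -0.11, IFI6 -0.22, AGR2 -0.15, SELENOS -0.14, PMAIP1 -0.19 and CCNE2 +0.15. Without Control replicate 2, ADM was -0.22, HMOX1 -0.11 and CA2 -0.090. Without Control replicate 3, CCND2 was +0.13 and SLC39A5 +0.12, and without CA replicate 2, AKR1C1 was -0.13. With the block, HINT3 was +0.98 both without Control replicate 3 and without all arrays of number 3. This equality holds by construction, so leaving out a control does not tell that control from the treated arrays of its number. The number of arrays and, for dim probe sets, signal near background limit every value.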
